A study of Canis lupus familiaris with 18 samples.

Results

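Vascular smooth muscle cells (VSMCs) of the vena cava were compared with VSMCs of the vena porta, the portal vein, in 3 samples of each vein. These 6 samples were taken from a series of 18 by their labelled cell type and vein, and no aortic sample entered the comparison. All cells came from healthy young adult male dogs, from the abdominal vena cava and the vena porta of 3 animals. The vessels were surplus tissue of dogs that had been used in other research, on pacemakers, and the labels name no treatment or genetic change. The VSMC fraction was obtained by collagenase digestion of the vessel wall after the endothelial layer had been digested away, and the cells were grown in DMEM with fetal calf serum and sequenced at passage 3. The sample titles number the cultures of each vein 1, 2, and 3, and the column names carry the letters ISO with 1, 2, and 5 in both veins. The labels do not state that cultures of the same number came from the same dog. What the cultures show is thus the expression of passaged cells in medium, not of the vein wall.

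VSMCs form the contractile layer of the vessel wall and make much of its matrix. In culture with serum they divide, and they are known to lose part of their contractile program. The vena cava returns blood from the hind body to the heart, whereas the vena porta carries blood from the gut and spleen to the liver. The wall of both veins is thinner and less muscular than that of the aorta. The comparison asks which genes differ between smooth muscle of a systemic vein and of the portal vein.

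The deposited table lists 24580 genes by Ensembl identifier, and 0 of these identifiers matched the gene table at hand. Genes are therefore given by identifier, without symbol, function, position, or sequence, and levels are not compared between genes. The total count of the 6 samples ranged from 7341227 in vena porta 1 to 15746769 in vena cava 1, so that 1 CPM (a count scaled to the library's total) stood for 7.34 to 15.7 reads. Between 10809 and 11631 genes had at least 10 reads in a sample.  Replicates of a vein differed by 8.33 to 13.9 times what counting alone gives (the median squared difference over its value under counting error), so no pair of them held the same counts within counting error.

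Because defining markers of smooth muscle could not be looked up by name, the cell type was checked with genes that separated the 2 cell types in the aortic samples, which are not part of the comparison. Of these, 131 genes were at least 32-fold higher in aortic VSMCs than in aortic canine primary endothelial cells (CaPECs), and 113 genes were at least 32-fold higher in aortic CaPECs (edgeR's quasi-likelihood test, adjusted p below 0.05). The genes high in aortic VSMCs summed to 33923, 35196, and 52696 CPM in vena cava 1, 2, and 3 and to 48761, 49694, and 44986 CPM in vena porta 1, 2, and 3. In CaPECs of the same veins this sum lay between 1514 and 3566 CPM. The genes high in aortic CaPECs summed to 170.8 to 294.7 CPM in the vena cava VSMCs and to 139.2 to 259.6 CPM in the vena porta VSMCs, against 2634, 11497, and 2644 CPM in vena cava CaPECs 1, 2, and 3 and 7069 to 11891 CPM in vena porta CaPECs. By this sum, vena cava CaPECs 1 and 3 stood below the other venous CaPECs, and the tests in CaPECs are given with and without them. Of these 113 genes, 8 had no read in any of the 6 samples and 68 had none in at least 1. Both sums overlapped between the veins. In the genes high in aortic VSMCs, the overlap came from vena cava 3, as vena cava 1 and 2 lay below every vena porta sample. By these sums, all 6 samples were like aortic VSMCs rather than CaPECs. The genes were chosen against CaPECs only, so the sums cannot tell VSMCs from other cells of the vessel wall.

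The 6 samples resembled each other closely, with Pearson correlations of log2 CPM from 0.931 to 0.965 over the 11253 genes that passed the filter on low counts. These correlations are across genes, which are not independent. The highest was between vena cava 3 and vena porta 3, and the lowest between vena cava 3 and vena porta 2. Each pair of cultures with the same number correlated at 0.959 to 0.965, and pairs from the same vein at 0.940 to 0.963. Pairs that shared neither correlated at 0.931 to 0.962, so these ranges overlapped.

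In the 500 most variable genes, the vein accounted for 20.6% of the variance and the culture number for 58.1%, which left 21.3% to neither. The vein takes up 1 of the 5 degrees of freedom among 6 samples, or 20%, and the number takes up 2, or 40%. On the first principal component, which held 44.1% of the variance, vena cava 2 and vena porta 2 lay at 19.9 and 23.1, and vena cava 3 and vena porta 3 at -32.5 and -14.7. The cultures numbered 1 lay between them, at 8.06 and -3.97. On the second component, with 22.5% of the variance, the vena cava spanned 1.67 to 19.9 and the vena porta -22.6 to -5.83, without overlap. With 3 samples against 3, a permutation test could not reach a p of 0.05, and none was made.

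**Figure D1:**
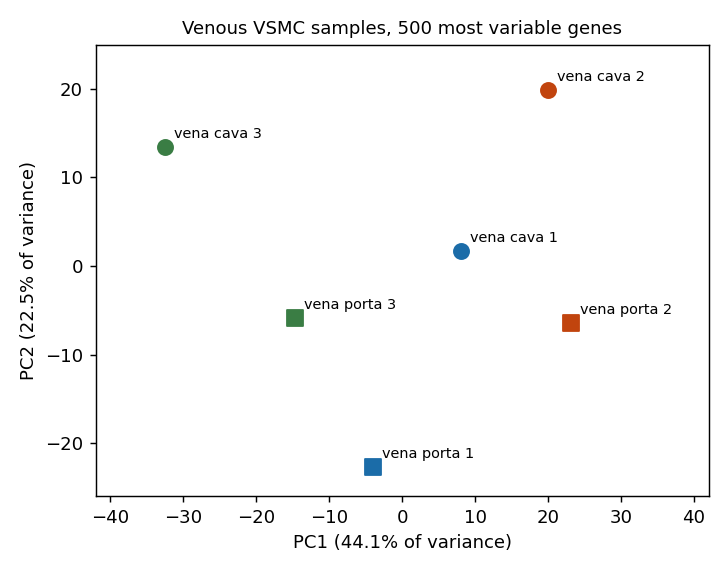
Principal components 1 and 2 of the 6 venous VSMC samples, from log2 CPM of the 500 most variable genes. Circles are vena cava and squares vena porta, and the color gives the culture number. The cultures numbered 2 lie to the right, at 19.9 and 23.1 on the first axis, and the cultures numbered 3 to the left, at -32.5 and -14.7, while the veins part on the second axis.

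When the vena cava was compared with the vena porta, 2 of 11253 genes passed the thresholds, of which 1 was higher and 1 lower in the vena cava. Calls required that edgeR's quasi-likelihood test with Benjamini-Hochberg adjustment gave a p-value under 0.05 and that the log2 fold change exceeded 0.4 in size, and the share of genes called was 0.0178%. With the culture number added to the model as a replicate block, the calls rose to 8 genes or 0.0711%, of which 2 were higher and 6 lower in the vena cava. DESeq2 called 83 genes without the block and 146 with it. Both genes of the first test were among the 8. In these 8 genes, which the same contrast selected, the samples of the veins did not overlap (9.98% of all genes tested), and the difference had 1 direction in all 3 numbers (27.2% of all). In culture, fewer cells that express a gene and less RNA per cell cannot be told apart.

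ENSCAFG00000002142 had the smallest p-value with and without the block and was lower in the vena cava. It had 8.95, 8.66, and 10.7 normalized CPM in vena cava 1, 2, and 3 and 107.7, 129.6, and 119.3 in vena porta 1, 2, and 3. The 3 values within each vein lay close together, and every vena porta sample was more than 10 times every vena cava sample. The log2 fold change was -3.66 (standard error 0.15, adjusted p = 8.32e-05 from edgeR, 12.7-fold), and with the block -3.66 (standard error 0.15, adjusted p = 0.000189). When each sample or each number was left out in turn, the gene was called every time.

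ENSCAFG00000029087 was higher in the vena cava, with 73.6, 54.2, and 50.3 normalized CPM in vena cava 1, 2, and 3 and 16.9, 12.9, and 12.997 in vena porta 1, 2, and 3. All 3 vena cava samples were thus well above the vena porta samples, and number 1 was the highest of either vein. The log2 fold change was 2.07 (standard error 0.20, adjusted p = 0.0344 from edgeR, 4.19-fold), and with the block 2.05 (standard error 0.15, adjusted p = 0.00503). Without the block, the call was lost whenever any one of the 6 samples was left out, with log2 fold changes of 1.88 to 2.21 and adjusted p-values from edgeR of 0.0580 to 0.188, which left 1 gene called.

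**Figure D2:**
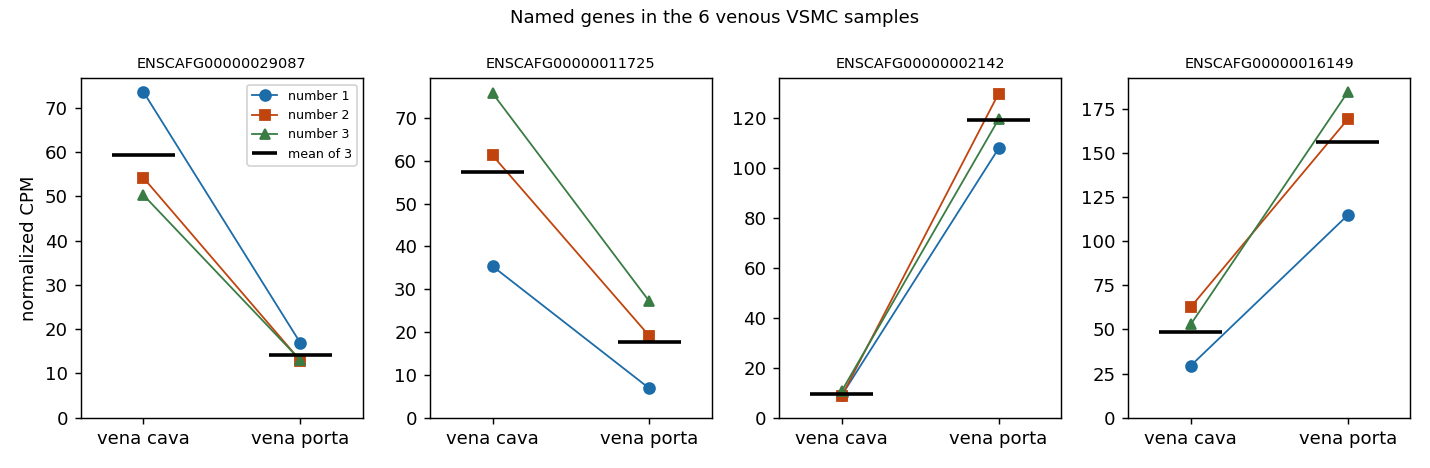
Normalized CPM of the 4 genes selected by rule in the 6 venous VSMC samples, with lines that join the cultures of the same number and black bars for the mean of 3. Each line runs in the same direction within a gene. The vena porta means are 14.3 and 17.7 for the genes higher in the vena cava, and 118.9 and 156.2 for the genes lower in it.

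In edgeR, the other 6 genes were called with the block only, whereas DESeq2 without the block called 7 of the 8. Among the 6, ENSCAFG00000011725 was the other gene higher in the vena cava, at 35.4, 61.3, and 75.8 normalized CPM in vena cava 1, 2, and 3 and at 6.82, 19.1, and 27.1 in vena porta 1, 2, and 3. In both veins the culture numbered 1 was lowest and the culture numbered 3 highest, and the difference within a number was 2.34, 1.68, and 1.48 on the log2 scale. Its log2 fold change was 1.67 without the block (standard error 0.46, adjusted p = 0.661 from edgeR) and 1.80 with it (standard error 0.20, adjusted p = 0.0272).

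ENSCAFG00000016149 had 29.5, 62.8, and 53.0 normalized CPM in vena cava 1, 2, and 3 and 114.8, 169.2, and 184.6 in vena porta 1, 2, and 3. Number 1 was the lowest in both veins here as well. Its log2 fold change was -1.69 without the block (standard error 0.29, adjusted p = 0.378 from edgeR) and -1.73 with it (standard error 0.15, adjusted p = 0.0112). ENSCAFG00000011725 and ENSCAFG00000016149 both belong to the 131 genes that were at least 32-fold higher in aortic VSMCs than in aortic CaPECs.

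The 4 remaining genes were all lower in the vena cava, with log2 fold changes in the blocked fit from -2.52 to -1.47 and adjusted p-values from edgeR between 0.0112 and 0.0143. The first of them had 21.3 to 28.6 normalized CPM in the vena cava and 65.9 to 89.7 in the vena porta, with an adjusted p-value of 0.0666 from edgeR without the block. The second had 310.4 to 536 in the vena cava and 875 to 1568 in the vena porta. It was highest in number 1 and lowest in number 3 in both veins. Another had 4.05 to 12.7 in the vena cava and 21.5 to 106.6 in the vena porta, where number 1 stood far above the other two. The last had 9.30 to 18.4 in the vena cava and 36.6 to 80.8 in the vena porta. Over the 8 genes, the median standard error was 0.28 without the block and 0.15 with it. These genes were selected by the blocked fit, and over all genes tested the median was 0.23 without the block and 0.20 with it. Leaving out any one number in the blocked fit, 8 of the 8 genes were called each time, but the total then rose to 121 genes without number 1, 21 without number 2, and 22 without number 3.

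**Figure D3:**
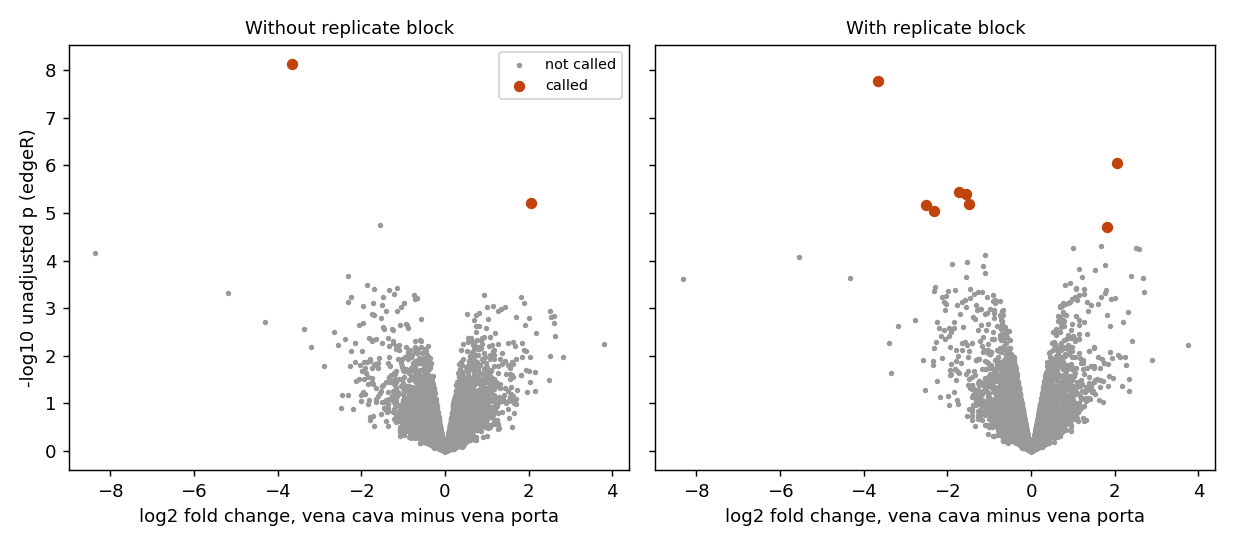
Log2 fold change (vena cava minus vena porta) against the unadjusted p-value from edgeR on a -log10 scale for the 11253 genes tested in VSMCs, without the replicate block on the left and with it on the right. The 2 and the 8 called genes are in color. All of them lie beyond 1.47 on the log2 scale in either direction.

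The tests called few genes, and the fold changes over all genes were small. In size, the log2 fold change had a median of 0.16 over the genes tested. An absolute log2 fold change above 1 was reached by 358 genes, 164 higher and 194 lower in the vena cava. Of these, 185 had veins that did not overlap and 274 had 1 direction in all 3 numbers, where all genes tested had 9.98% and 27.2%, and the size of the fold change is itself part of the same contrast. The block called 8 of them. Before adjustment, 548 genes had a p-value under 0.05 (262 higher and 286 lower in the vena cava), which is 4.87% of the genes tested, and 781 genes (347 higher and 434 lower) or 6.94% did with the block. The median standard error of a log2 fold change was 0.41 in genes up to 10.3 mean CPM, 0.21 in those between, and 0.15 in genes from 37.7 mean CPM. The biological coefficient of variation was 0.264 without the block and 0.206 with it. The smallest absolute log2 fold change called by edgeR was 2.07 without the block and 1.47 with it, and edgeR called no smaller difference with all 6 samples, whereas DESeq2 without the block called ENSCAFG00000016149 and ENSCAFG00000011725 as well, both at 1.69 in size.

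The samples of the veins did not overlap in 1123 genes, 541 with the vena cava above and 582 below, which is 9.98% of the genes tested. The difference had 1 direction in all 3 numbers in 3062 genes, or 27.2%, of which 1512 were higher and 1550 lower in the vena cava. A difference of at least 1 on the log2 scale in each of the 3 numbers was found in 69 genes, 27 higher and 42 lower in the vena cava. The 8 genes called with the block were among them. The median absolute difference within a number was 0.29, 0.27, and 0.24 for numbers 1, 2, and 3, and 981, 934, and 832 genes differed by more than 1.

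A gene outside the rule, chosen after its values were seen, was detected in the vena porta alone. ENSCAFG00000009469 had 25, 31, and 59 reads in vena porta 1, 2, and 3 and 0 reads in each of the 3 vena cava samples. With a floor of 3 reads over the 3 vena cava samples together, it was at least 46.1-fold higher in the vena porta, and this bound covers counting error only. No test is given for it, since it was chosen for this pattern. Its normalized level in the 3 vena porta samples was 3.71, 3.13, and 4.79 CPM.

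The same gene was read in the other samples of the series. CaPECs of the vena porta had 91, 25, and 17 reads in samples 1, 2, and 3, whereas the 3 vena cava CaPEC samples, the 3 aortic CaPEC samples, and the 3 aortic VSMC samples had 0. Over all 18 samples, the 6 vena porta samples had 17 to 91 reads and the 12 others had none. It was the only gene in the table with at least 10 reads in every vena porta sample and no read in the other samples, and no gene had this pattern for the vena cava. Among VSMCs alone, 2 genes had at least 10 reads in each vena porta sample and none in the vena cava, and 0 genes had the opposite pattern. The second of them had 10 to 39 reads in vena porta VSMCs and was also read in all aortic CaPECs (20 to 33 reads), in all vena porta CaPECs (3 to 19 reads), in 1 vena cava CaPEC sample (10 reads), and in 1 aortic VSMC sample (1 read). With a minimum of 3 reads in place of 10, the numbers were 5 in each direction.

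**Figure D4:**
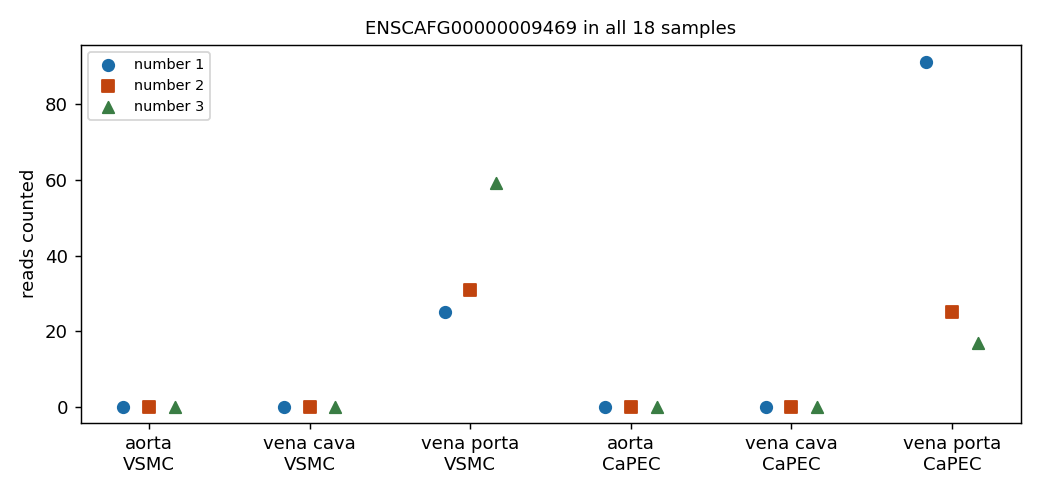
Reads counted for ENSCAFG00000009469 in the 18 samples, by vessel and cell type, where each point is 1 sample and its color and shape give the sample number. The 3 vena porta VSMC samples lie at 25, 31, and 59 and the 3 vena porta CaPEC samples at 17, 25, and 91, while the 12 samples of other vessels lie at 0.

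The culture number was tested as well, with the vein in the model. After adjustment, 14 of 11253 genes differed between the 3 numbers in edgeR's test (0.124%), and 1285 did at an unadjusted p-value under 0.05. None of the 8 genes called between the veins was among the 14. DESeq2's likelihood ratio test gave 349 genes, and edgeR gave 265 with no filter on low counts and 6 with no vein in the model. What the number stands for is not stated in the labels, and a dog, an isolation, or a batch of handling cannot be told apart.

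The genes that marked the cell types in the aorta were followed in the comparison of the veins. Of the 131 genes high in aortic VSMCs, 121 passed the filter. Their median log2 fold change was -0.30, against -0.0016 over all genes, and the median of its size was 0.58 against 0.16. At an unadjusted p-value below 0.05, which 4.87% of all genes reached, 7 were higher and 16 lower in the vena cava. The block called 2 of them, 1 in each direction, and 0.0711% of all genes. These genes are not independent. The sum of the 131 genes was below every vena porta sample in vena cava 1 and 2, but vena cava 3 had the highest sum of the 6 samples. Of the 113 high in aortic CaPECs, 31 passed, with a median of 0.19 and a median size of 0.60, of which 3 were higher and 1 lower at an unadjusted p-value below 0.05 and 0 were called in edgeR with or without the block. The part of these genes in the other results was not tested.

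The contrast most like this one is the same pair of veins in CaPECs. There, 0 of 11333 genes were called at the same thresholds (0% of the genes tested), with or without the block, while 1019 genes were under a p-value of 0.05 before adjustment without it and 669 with it. In VSMCs without the block, 548 of 11253 genes were under that value before adjustment. The biological coefficient of variation was 0.410 in CaPECs against 0.264 in VSMCs, and the median standard error 0.30 against 0.23. Over the genes tested in both, the median size of the log2 fold change was 0.28 in CaPECs and 0.15 in VSMCs. Fewer calls in CaPECs thus do not mean smaller differences there. Across the 10848 genes tested in both, the log2 fold changes of VSMCs and CaPECs had a Pearson correlation of -0.038 and a Spearman correlation of -0.12, given as a description since genes are not independent. Of the 255 genes with an absolute log2 fold change above 1 in VSMCs, 124 had the same sign in CaPECs (48.6%), and over all 10848 genes 45.6% did. Without vena cava CaPECs 1 and 3, a choice made after their sums were seen, again 0 genes were called in CaPECs by edgeR (463 before adjustment), with the 1 remaining vena cava sample assumed to vary like the 3 vena porta samples. The biological coefficient of variation was then 0.359 and the median standard error 0.39. The correlations changed sign, to 0.16 (Pearson) and 0.071 (Spearman), and the same sign was found in 169 of 287 genes above 1 in VSMCs (58.9%) and in 51.7% of all.

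CaPEC samples are numbered 1 to 3 in their titles as well, but their column names carry other numbers than those of the VSMCs, so a number is not shown to be the same source in both cell types. Whether the difference between the veins was itself different in VSMCs and CaPECs was tested as an interaction over the 12 venous samples. Of 11985 genes, 0 passed an adjusted p-value of 0.05 in edgeR (0%), and 1162 were under 0.05 before adjustment. Limma with a variance for each cell type gave 0 genes, edgeR with a block for the number within each cell type gave 1, and DESeq2 gave 152. Without the samples numbered 2, which leaves samples 1 and 3 as the only vena cava CaPECs, edgeR gave 212 genes, and without those numbered 1 or 3 it gave 0. Leaving out vena cava CaPEC 1 alone gave 0 genes (821 before adjustment), and leaving out vena cava CaPEC 3 alone gave 3. Of these, 1 was among the 8 genes, ENSCAFG00000029087 (adjusted p = 0.0408 from edgeR, against 0.339 with all 12 samples).

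The 8 genes called in VSMCs were also tested in CaPECs, where their adjusted p-values from edgeR were 0.516 to 0.694 (0.999 for each without vena cava CaPECs 1 and 3). Of the 6 lower genes, 5 had a log2 fold change below 0 in CaPECs, and of the 2 higher genes 0 had one above 0, which also held without vena cava CaPECs 1 and 3. ENSCAFG00000016149 was lower in the vena cava in CaPECs of all 3 numbers, with differences of -1.45, -0.079, and -2.44 on the log2 scale. So was 1 of the 4 genes whose identifiers are not printed here, with -5.98, -0.29, and -2.05. This gene was low in CaPECs, at 0.23, 2.11, and 0.42 CPM in the vena cava and 27.3, 2.62, and 2.41 CPM in the vena porta. In both genes, number 2 differed least, and the larger differences involve vena cava CaPECs 1 and 3. ENSCAFG00000002142 differed by 0.51, -0.28, and -6.01 in CaPECs of numbers 1, 2, and 3, against -3.56, -3.88, and -3.46 in VSMCs. Of the genes higher in the vena cava in VSMCs, ENSCAFG00000029087 differed by -3.50, -3.20, and 0.90 and ENSCAFG00000011725 by -4.29, 1.34, and -3.76. Both thus had 2 of 3 numbers in the other direction. For ENSCAFG00000011725 these were numbers 1 and 3, which hold vena cava CaPECs 1 and 3. The adjusted p-value of the interaction from edgeR lay between 0.134 and 0.984 for the 8 genes, and between 0.119 and 0.99996 without vena cava CaPECs 1 and 3. Of the 69 genes that differed by at least 1 in every VSMC number, 49 were tested in CaPECs, of which 9 had the same direction in all 3 CaPEC numbers and 5 the opposite one, or 18.4% and 10.2%. These shares need all 3 numbers, so they rest on vena cava CaPECs 1 and 3 and have no value without them. Over the 2908 genes with 1 direction in the 3 VSMC numbers, these shares were 11.97% and 16.2%.

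**Figure D5:**
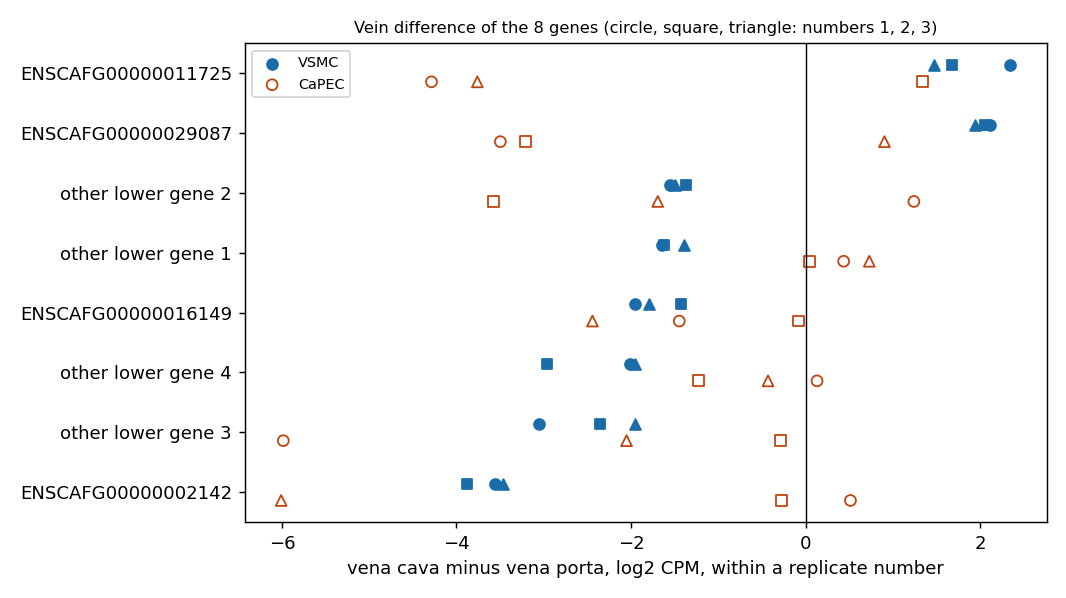
Difference between vena cava and vena porta in log2 CPM within each sample number for the 8 genes called with the replicate block, filled symbols for VSMCs and open symbols for CaPECs, with circles, squares, and triangles for numbers 1, 2, and 3. The 4 genes shown without their identifiers are the remaining genes lower in the vena cava, in order of p-value. The VSMC differences of each gene lie on 1 side of 0, from -3.88 to -1.38 for the lower and from 1.48 to 2.34 for the higher genes, whereas the CaPEC differences run from -6.01 to 1.34 and lie on both sides of 0 in 5 of the 8 genes.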

How the data were processed

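The authors isolated poly(A) RNA, prepared directional libraries (single-end reads of 75 bases), aligned the reads to CanFam3.1 with STAR 2.4.2a, and counted them per gene with HTSeq 0.6.1p1 in union mode. They deposited raw read counts, not normalized. The annotation release and the strand setting of the counting are not given in the sources used here, so overlapping and antisense genes cannot be told apart. From these counts, the comparison was computed with edgeR 4.0.16 in R 4.3.3 (TMM, filterByExpr with a minimum count of 10, glmQLFTest, Benjamini-Hochberg adjustment). Calls took the log2 fold change minimum of 0.4 from the study's methods, which use DESeq2 and a p-value whose adjustment is not stated, and set the adjusted p-value at 0.05. Standard errors were derived from the F statistic. DESeq2 1.42.0 and limma 3.58.1 were alternatives, with other filters, size factors, and samples left out. The scripts were tested on simulated counts. Principal components used log2 CPM with a prior count of 2. Levels in samples other than the 6 venous VSMC samples were normalized over all 18.

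Samples with the same number deviated from their vein's mean with correlations across genes of 0.086, 0.407, and 0.381 for numbers 1, 2, and 3. Pairs of different numbers had correlations from -0.449 to 0.116. The fit without the block was planned as the main one, with the blocked fit as the alternative. By plan, the blocked value was to be printed beside it if all 3 same-number correlations exceeded 0.1. Number 1 did not exceed it and no label ties the numbers to dogs, but the blocked fit is given all the same. The study's methods name 3 dogs as the source of all vessels, but no label ties a sample to a dog, so p-values measure the spread between these samples.

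The genes named by rule were, in each direction, the 2 with the smallest p-values among called genes without overlap, filled from the blocked fit where fewer were called. The samples and lists were chosen with earlier results of these data known. Gene lists by symbol (contractile, matrix, positional, signaling, and cell type genes) were planned but not run, because no identifier matched a symbol.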

Additional observations from a re-analysis of the deposited data

How the results depend on the processing

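The number of genes called between the veins (2 in edgeR) was 8 with the replicate block, 8 with the block and DESeq2 size factors, 20 in limma with the block, 83 in DESeq2, and 146 in DESeq2 with the block, and it was 2 or 3 under the other settings with all samples. Without any one sample or number it was 1, and in blocked fits without 1 number, chosen after the data were seen, 121, 21, and 22 without numbers 1, 2, and 3. The 8 blocked calls were all among those of DESeq2 and limma with the block. The 4 genes selected by rule kept their direction in all 80 recomputed values. ENSCAFG00000002142 passed an adjusted p of 0.05 in 20 of 20, ENSCAFG00000029087 in 11, and the other 2 genes in 7 each. Genes differing between numbers were 14, and 349 in DESeq2, 265 with no filter on low counts, and 6 with no vein in the model. The interaction gave 0, and 1 with the block, 152 in DESeq2, 0 to 212 when a number was left out, and 3 without vena cava CaPEC 3, a setting chosen after the data were seen. The number's share of variance was 51.7% over all genes. The genes high in CaPECs summed on average to 214.9 CPM in the vena cava and 184.3 CPM in the vena porta, to 3261 and 2981 CPM with an 8-fold minimum, and to 124.3 and 104.9 CPM with markers from venous samples. The cause of these changes was not tested. With 3 samples a vein, differences under 1.47 on the log2 scale were not called in edgeR with all samples.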

Other observations

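In aortic VSMCs, normalized over all 18 samples, ENSCAFG00000029087 had 0.621, 0.531, and 2.32 CPM in samples 1, 2, and 3, below every venous VSMC sample. ENSCAFG00000002142 had 4.45, 7.97, and 13.9 CPM there, around the level of the vena cava and far under that of the vena porta. ENSCAFG00000011725 had 8.39, 11.7, and 17.0 CPM, within the range of the vena porta, and ENSCAFG00000016149 had 35.5, 93.2, and 105.2 CPM, between the lowest vena cava and the lowest vena porta sample. The aortic levels were not tested against the veins.

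The first of the 4 further genes lower in the vena cava in VSMCs was higher there in CaPECs of all 3 numbers. It had 96.4, 92.7, and 83.4 CPM in the vena cava and 71.2, 89.7, and 50.2 CPM in the vena porta. The gene differed by 0.44, 0.046, and 0.73 on the log2 scale, so number 2, the only one without vena cava CaPEC 1 or 3, differed little. With all 12 venous samples, this gene had the smallest p-value of the interaction among the 8 genes called in VSMCs. The adjusted p-value was 0.134 from edgeR's quasi-likelihood test and 0.175 with the block, which missed the threshold. Without vena cava CaPEC 3, a setting chosen after the data were seen, the smallest was that of ENSCAFG00000029087. Its adjusted p-value from edgeR was 0.0408, against 0.339 with all 12 samples, and it was the only one of the 8 to pass in that setting. Number 3 was the only CaPEC number in which this gene was higher in the vena cava (0.90 on the log2 scale). The gene had been selected by its difference in the same VSMC samples.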
